A study of Mus musculus with 8 samples.

Results

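The genes described here are 39 mouse genes that build and control podosomes and the actin ring of the osteoclast, the bone-resorbing cell. They were chosen by name as parts of the podosome core, the ring of adaptor proteins around it, the Arp2/3 complex, Src-Pyk2-Cbl signalling and other actin regulators. No measured value entered the choice, but earlier results of these data were known when it was made. All 39 were found among the 46517 genes of the table, and all 39 were among the 14139 genes with enough counts to be tested. By role they comprise 9 ring adaptors, 7 signalling and scaffold genes, 4 genes that promote nucleation, 7 subunits of the Arp2/3 complex, 8 severing and bundling genes, and 4 genes of myosins and dynamin.

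RNAseq was performed on osteoclast cultures from 4 Elmo1-/- and 4 Elmo1+/- mice, 1 library per mouse. The Elmo1-/- mice lack Elmo1 in every cell and not in osteoclasts alone. The controls carry 1 intact copy, although the library titles call them wild type. The study's methods describe the controls of all experiments as littermates matched for age and sex. Among all genes tested, however, Xist, which female cells express, had the highest log2 difference, 3.21 with Elmo1-/- higher. Over all genes the highest such difference was 6.38 among the libraries numbered 1 and 2 and 1.65 among those numbered 3 and 4. The difference of Xist therefore lay mainly among the libraries numbered 1 and 2. Whether sex was matched in these 8 libraries was not tested. Marrow was flushed from the femurs of mice 6 to 8 weeks old, and the cells that did not attach overnight were grown for 7 days with GST-RANKL at 50 ng/ml and medium conditioned by L929 cells, which supplies macrophage colony-stimulating factor. The study's methods, unlike the library labels, place before GST-RANKL a period in conditioned medium alone, from which the cells that attached were taken on. ELMO1 is a cytoplasmic adaptor that acts with DOCK proteins to activate RAC, a small GTPase that drives actin assembly, and the study asked how its loss changes osteoclast function.

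Podosomes are small adhesions with a core of branched actin filaments, and a ring of integrins and adaptors surrounds each core. In osteoclasts on bone, podosomes crowd into an actin ring, the sealing zone, which encloses the patch of bone being resorbed. The Arp2/3 complex makes the branched filaments when WASP-family proteins activate it, cofilin and gelsolin cut filaments, and bundling proteins such as fascin and α-actinin hold them together. Src and Pyk2 are the kinases by which integrin attachment is known to control podosome turnover in osteoclasts.

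Values are normalized counts, that is, read counts per gene divided by 1 size factor per library, and 4 values of a genotype are listed in the order of the mouse numbers, 1 to 4. Between 20905502 and 40846651 reads fell on genes in each library. Elmo1 stood between 274 and 316 normalized counts in the 4 Elmo1-/- libraries and between 1423 and 1769 in the 4 Elmo1+/- libraries, so the target gene matched every genotype label. Osteoclast markers were abundant, with Ctsk, the collagen-degrading cathepsin K, between 69531 and 328164, and macrophage markers were too, with Adgre1 (F4/80) between 76358 and 108777. The libraries fell into 2 sets of 4 that do not follow genotype, with numbers 1 and 2 of both genotypes in 1 set and numbers 3 and 4 in the other, and the first principal component, which separates them, carried 62.3% of the variance. The mice came from 2 experiments, but which mouse belonged to which is not given in the sources used here. Elmo1-/- mouse 1 stood farthest out on that component, at -52.3. Elmo1-/- mouse 2, at -6.03, lay between the sets. Elmo1+/- mice 1 and 2 were at -23.1 and -26.3, and the libraries numbered 3 and 4 at 24.65 to 31.9.

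Promoter sequences are shown first for the members that carry a CArG box, the short element bound by serum response factor, which is known to regulate many actin cytoskeleton genes. Upstream windows in RefSeq (GRCm38.p6) were matched for 34 of the 39 genes. The genes without a match were Pxn, Ptk2b, Asap1, Sh3pxd2a and Cttn. The 250 bases before the start site were searched on both strands for 3 motifs, namely the CArG box, the AP-1 motif TGANTCA and the PU.1-type motif GAGGAA, and bases of a match are in capitals. The CArG box was present in 4 of the 34 genes and in 1.47% of all 32851 mouse windows of that length. These 4 sequences are printed 5′ to 3′ in the direction of the gene.
Vcl, chr14:20929148-20929397, plus strand: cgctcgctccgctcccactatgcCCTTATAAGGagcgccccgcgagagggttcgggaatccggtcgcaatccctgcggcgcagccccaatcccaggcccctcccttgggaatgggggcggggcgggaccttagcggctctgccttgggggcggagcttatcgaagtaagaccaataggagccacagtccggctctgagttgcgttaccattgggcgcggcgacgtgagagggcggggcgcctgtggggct
Myo1e, chr9:70207100-70207349, plus strand: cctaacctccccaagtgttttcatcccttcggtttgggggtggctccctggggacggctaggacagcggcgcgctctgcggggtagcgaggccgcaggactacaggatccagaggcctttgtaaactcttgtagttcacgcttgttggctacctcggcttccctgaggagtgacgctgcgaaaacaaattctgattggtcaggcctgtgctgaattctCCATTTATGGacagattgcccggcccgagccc
Fermt2, chr14:45530066-45530315, minus strand: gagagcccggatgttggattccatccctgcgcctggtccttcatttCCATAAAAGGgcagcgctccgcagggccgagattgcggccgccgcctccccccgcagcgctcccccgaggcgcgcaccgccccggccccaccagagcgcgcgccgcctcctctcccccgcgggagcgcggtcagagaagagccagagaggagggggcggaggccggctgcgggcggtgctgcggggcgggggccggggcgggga
Arpc4, chr6:113377863-113378112, plus strand: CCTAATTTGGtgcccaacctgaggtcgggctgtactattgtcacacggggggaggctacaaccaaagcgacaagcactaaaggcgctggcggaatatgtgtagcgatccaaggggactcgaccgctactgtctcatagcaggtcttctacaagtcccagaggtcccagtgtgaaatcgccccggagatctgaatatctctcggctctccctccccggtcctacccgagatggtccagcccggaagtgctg
The windows of Arpc2 and Was, the members that differed least between the library sets, are shown as examples that hold none of the 3 motifs.
Arpc2, chr1:74236267-74236516, plus strand: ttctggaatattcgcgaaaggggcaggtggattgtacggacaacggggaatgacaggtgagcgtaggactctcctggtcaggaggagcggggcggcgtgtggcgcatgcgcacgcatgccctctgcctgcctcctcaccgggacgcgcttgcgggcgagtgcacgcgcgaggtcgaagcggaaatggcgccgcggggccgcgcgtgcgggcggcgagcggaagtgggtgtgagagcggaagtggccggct
Was, chrX:8090492-8090741, minus strand: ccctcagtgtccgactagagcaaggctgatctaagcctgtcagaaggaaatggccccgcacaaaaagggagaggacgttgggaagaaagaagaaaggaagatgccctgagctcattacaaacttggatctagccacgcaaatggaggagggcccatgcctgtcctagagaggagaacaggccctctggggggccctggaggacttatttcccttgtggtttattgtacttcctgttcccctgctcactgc

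The AP-1 motif was present in the windows of 2 members, Zyx and Actn4, and in 6.75% of all windows. The PU.1-type motif was present in 6 members (Cbl, Dnm2, Gsn, Lpp, Src and Tln1) and in 23.3% of all windows. The windows of Dnm2, Tln1 and Lpp lie 188, 161 and 190 bases from a principal transcript start. For Gsn and Lpp the bases after the start site did not match a transcript of the gene, so these windows are less certain. Vcl, Myo1e and Fermt2 are among the 9 members that differed most between the library sets, of which 7 have a window, whereas Arpc4 is among the other 27. Of these 7, the windows of Dbn1, Actn1 and Tns3 hold none of the 3 motifs, as do those of Arpc2 and Was. A match here is a description of letters, and the motifs were searched with the expression values known.

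None of the 39 genes differed between genotypes past an adjusted p of 0.05 (limma, Benjamini-Hochberg over all 14139 genes), and the adjusted p of every member was 0.9999. Over all genes tested, 0.00707% were called by this rule, which is 1 gene, Elmo1 itself. None of the 39 reached an unadjusted p of 0.05 in limma, against 0.941% of all genes, and edgeR's quasi-likelihood test on the recovered reads likewise gave 0 of 39 at both thresholds, against 0.00704% and 1.02% of all genes. The median log2 difference, Elmo1-/- minus Elmo1+/-, was 0.00059 over the 39 members and -0.0031 over all genes tested, and the single differences ran from -0.21 for Vcl to 0.27 for Fscn1. Of the members 21 lay above 0 and 18 below.

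The intervals show how far this comparison reaches. The 95% interval of the difference lay within 0.5 on the log2 scale, about 1.41-fold, on either side of 0 for 29 of the 39 members, and 65.5% of all genes tested had intervals that narrow. For the other 10 members it reached past 0.5. With the library set as a term in the fit, 36 of the 39 intervals lay within that bound, against 76.1% of all genes. The exceptions were Vcl, Fermt2 and Dbn1.

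**Figure D1:**
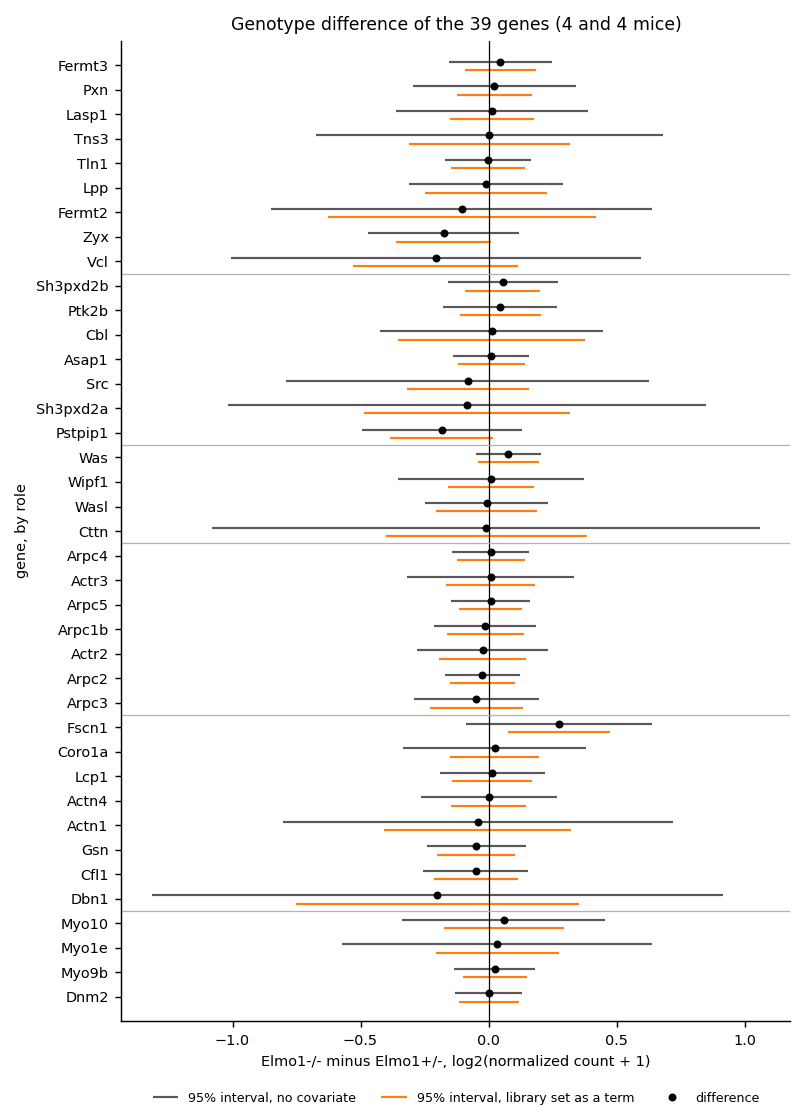
Genotype difference of each of the 39 genes by role, in the order of the text from ring adaptors at the top to myosins and dynamin at the bottom. Points are Elmo1-/- minus Elmo1+/- on the log2(normalized count + 1) scale from 4 and 4 mice, dark bars are 95% intervals without a covariate and orange bars are 95% intervals with the library set as a term; all dark bars cross 0, and of the orange bars that of Fscn1 alone does not.

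Among the ring adaptors, which link integrins to actin around the podosome core, no gene passed the test in either direction, and the differences ran from -0.21 for Vcl to 0.05 for Fermt3. Vinculin (Vcl, ENSMUSG00000021823, chr14:20929398-21033676, plus strand) binds talin and actin. Vcl was at 697, 1145, 1864 and 2062 normalized counts in Elmo1-/- and at 1185, 1148, 2074 and 1926 in Elmo1+/-. The genotypes overlapped, Elmo1-/- mouse 1 was the lowest library, and in each genotype mice 3 and 4 lay above mice 1 and 2. The means were 1442 ± 634 and 1583 ± 485 (SD, n = 4 each), with a log2 difference of -0.21 (SE 0.35, limma unadjusted p = 0.574, exact permutation p = 0.543). In the annotation, 25.5% of the exon length of Vcl is also covered by Ap3m1 on the opposite strand, and whether the counting used strand is not given in the sources used here.

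Zyxin (Zyx, ENSMUSG00000029860, chr6:42349630-42360213, plus strand) is a LIM protein of tensed adhesions. Zyx was at 3189, 2452, 2208 and 2279 normalized counts in Elmo1-/-, and at 3283, 2894, 2557 and 2634 in Elmo1+/-. The genotypes overlapped because Elmo1-/- mouse 1 stood above its group, yet the Elmo1-/- library was the lower of the 2 in 4 of 4 same-numbered pairs. The log2 difference was -0.18 (SE 0.13, limma unadjusted p = 0.209, exact permutation p = 0.257), and it was -0.14 among mice 1 and 2 and -0.21 among mice 3 and 4. With the replicate number as a block the limma unadjusted p was 0.0179, and without Elmo1-/- mouse 1 the difference was -0.29 with a limma unadjusted p of 0.0148. The labels do not say that a shared number marks a pair, here or for the genes below.

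Kindlin-3 (Fermt3) is the blood-cell kindlin that, with talin, switches integrins on. Fermt3 was at 17117, 14954, 14192 and 14074 in Elmo1-/- and at 15858, 14952, 13791 and 13791 in Elmo1+/-. The genotypes overlapped, although the Elmo1-/- library was the higher in 4 of 4 same-numbered pairs, and the log2 difference was 0.05 (SE 0.09, limma unadjusted p = 0.623). Lasp1, an actin-binding LIM and SH3 protein and the ring adaptor with the highest mean level per length, was at 14412, 17882, 21382 and 21749 in Elmo1-/- and at 16413, 15362, 21450 and 21388 in Elmo1+/-. Here too the genotypes overlapped, and the mice numbered 3 and 4 stood above those numbered 1 and 2 in both. Talin-1 (Tln1), the integrin-activating link to actin, lay between 22386 and 25745 in all 8 libraries, with a log2 difference of -0.0023 (95% interval -0.17 to 0.17). Paxillin (Pxn), Lpp, Tns3 and Fermt2 differed by 0.02, -0.01, 0.0033 and -0.10 on the log2 scale, each with an interval that includes 0.

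Of the signalling and scaffold genes, none passed the test, with differences from -0.18 for Pstpip1 to 0.06 for Sh3pxd2b. Pstpip1 (ENSMUSG00000032322, chr9:56089962-56128888, plus strand) encodes an F-BAR protein that binds WASP and the phosphatase PTP-PEST. Its values were 9740, 7581, 11604 and 10766 in Elmo1-/- and 11216, 9578, 11950 and 11941 in Elmo1+/-. The genotypes overlapped, with the Elmo1-/- library the lower in 4 of 4 same-numbered pairs. The log2 difference was -0.18 (SE 0.14, limma unadjusted p = 0.218, exact permutation p = 0.257), with -0.27 among mice 1 and 2 and -0.10 among mice 3 and 4. With the replicate block the limma unadjusted p was 0.024, and without Elmo1-/- mouse 2, the lowest library, the difference was -0.06.

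Pyk2 (Ptk2b), the focal adhesion kinase of osteoclasts, was at 8263, 8736, 8900 and 9198 in Elmo1-/- and at 8351, 7161, 9727 and 8935 in Elmo1+/-. Tks4 (Sh3pxd2b), a scaffold of podosomes and invadopodia, was at 5272, 6071, 6082 and 6548 in Elmo1-/- and at 5481, 5177, 6456 and 5973 in Elmo1+/-. For both kinase and scaffold the genotypes overlapped, and the log2 differences of 0.05 (SE 0.10) and 0.06 (SE 0.10) were smaller than the spread within genotypes. Src, the kinase without which osteoclasts are known to form no actin ring, differed by -0.08 on the log2 scale with a wide interval of -0.79 to 0.63. That of Tks5 (Sh3pxd2a) ran from -1.02 to 0.85 around a difference of -0.08. Cbl, a ubiquitin ligase and Src substrate, and Asap1, an Arf GTPase-activating protein of podosomes, differed by 0.01 each, and the interval of Asap1 was -0.14 to 0.16.

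Among the genes that promote nucleation, Was (ENSMUSG00000031165, chrX:8081453-8090498, minus strand), which encodes the blood-cell activator of Arp2/3 that podosome cores require, was the 1 member of 39 whose genotypes did not overlap. Was stood at 3695, 3771, 3618 and 3646 normalized counts in Elmo1-/- and at 3406, 3379, 3600 and 3591 in Elmo1+/-. All 4 Elmo1-/- values lay above all 4 Elmo1+/- values, by as little as the gap from 3600 to 3618. Over all genes tested, 0.941% did not overlap between genotypes and 0.502% did so with Elmo1-/- higher. The means were 3683 ± 67 and 3494 ± 117 (SD, n = 4 each), with a log2 difference of 0.08 (SE 0.06). The exact permutation p was 0.0286, the smallest that 70 arrangements of 4 against 4 can give, while the limma unadjusted p was 0.207. The difference was 0.14 among mice 1 and 2 and 0.01 among mice 3 and 4, and with libraries scaled to equal totals the genotypes of Was overlapped, which left 0 of 39.

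The 3 other nucleation genes differed by -0.0069 for Wasl (N-WASP, the broadly expressed relative of WASP), 0.01 for Wipf1 (WIP, the partner that stabilizes WASP) and -0.01 for cortactin (Cttn, which steadies branch points). The interval of Cttn, -1.08 to 1.06, was the second widest of the 39 after that of Dbn1.

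The 7 subunits of the Arp2/3 complex stayed within 0.05 of 0 on the log2 scale, from -0.05 for Arpc3 to 0.01 for Arpc4, and the widest of the 7 intervals, that of Actr3, ran from -0.32 to 0.33. Arpc2, one of the subunits that hold the complex to the mother filament, was at 29083, 28542, 28851 and 28275 in Elmo1-/- and at 29439, 28267, 29147 and 29885 in Elmo1+/-. These 8 values span less than those of any other member on the log2 scale, with an SD of 0.03. Arpc3 was at 22439, 17518, 17486 and 16636 in Elmo1-/- and at 20885, 19015, 17977 and 18281 in Elmo1+/-. The genotypes overlapped, and without Elmo1-/- mouse 1, which stood far above its group, they did not. Its log2 difference over all 8 libraries was -0.05 (SE 0.11, limma unadjusted p = 0.667).

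Per kilobase of exon and scaled to a total of 1000000 per library, which allows genes to be compared, the subunits stood in the order Arpc2 (1139), Arpc5 (671), Arpc3 (542), Arpc1b (494), Actr2 (433), Arpc4 (375) and Actr3 (299.8). Of the summed level of the 7, Arpc2 made up 28.7% ± 0.2 in Elmo1-/- and 28.9% ± 0.3 in Elmo1+/- (SD, n = 4 each), and Actr3, which encodes the ARP3 actin-like subunit, 7.61% ± 1.23 and 7.47% ± 0.98. Over the 8 libraries Arpc2 (1039 to 1226) lay wholly above Arpc5 (587 to 725), and Arpc4 (357 to 394) wholly above Actr3 (211 to 350.03). The other neighbours overlap, with Arpc3 from 503 to 590, Arpc1b from 482 to 513 and Actr2 from 320 to 487. The annotation places 18.2% of the exon length of Arpc1b under Pdap1 on the opposite strand and 12.2% of that of Arpc4 in Ttll3 on the same strand, so their levels are less certain.

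The severing and bundling genes held the largest positive difference of the list. Fascin (Fscn1, ENSMUSG00000029581, chr5:142960343-142973185, plus strand) bundles parallel filaments in filopodia and podosomes. Fscn1 was at 988, 925, 1129 and 1083 normalized counts in Elmo1-/- and at 761, 642, 1067 and 1002 in Elmo1+/-. The genotypes overlapped, and the Elmo1-/- library was the higher in 4 of 4 same-numbered pairs. The means were 1031 ± 92 and 868 ± 200 (SD, n = 4 each), with a log2 difference of 0.27 (95% interval -0.09 to 0.64, limma unadjusted p = 0.123, exact permutation p = 0.257). It was 0.45 among mice 1 and 2 and 0.10 among mice 3 and 4, and without Elmo1+/- mouse 2, the lowest library, it was 0.14. With the library set as a term the limma unadjusted p was 0.0116, and with the replicate block it was 0.0101, with adjusted p of 0.9999 and 0.9998.

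Cofilin (Cfl1), which severs ageing filaments, was at 62164, 52511, 53455 and 51677 in Elmo1-/- and at 61499, 56467, 53465 and 55853 in Elmo1+/-. Gelsolin (Gsn), a calcium-activated severing and capping protein of podosomes, was at 17792, 15527, 18338 and 17499 in Elmo1-/- and at 18087, 16048, 18749 and 18610 in Elmo1+/-. Both overlapped between genotypes with a log2 difference of -0.05, and Gsn was the lower in Elmo1-/- in 4 of 4 same-numbered pairs. Drebrin (Dbn1), a filament-binding protein better known from neurons, was at 40, 95, 197 and 159 in Elmo1-/- and at 93, 78, 181 and 158 in Elmo1+/-. Its genotypes overlapped, Elmo1-/- mouse 1 was the lowest library by far, and its interval, -1.32 to 0.92, was the widest of the 39. Coronin-1A (Coro1a), L-plastin (Lcp1), α-actinin-1 (Actn1) and α-actinin-4 (Actn4) differed by 0.02, 0.01, -0.04 and 0.00055 on the log2 scale. For Cfl1, 16.5% of the exon length lies under Snx32 on the opposite strand.

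Myo1e, a membrane-bound class I myosin with the highest mean level per length of the myosins and dynamin, was at 4512, 6875, 9261 and 8897 in Elmo1-/- and at 5467, 5348, 9039 and 8801 in Elmo1+/-. The genotypes overlapped, the log2 difference was 0.03 (SE 0.27), and mice 3 and 4 stood above mice 1 and 2. Myo10, the filopodial myosin, and Myo9b, an unconventional myosin, differed by 0.06 and 0.02. Dynamin-2 (Dnm2), the GTPase that pinches membrane and is found in podosomes, lay between 5889 and 6285 in all 8 libraries with a difference of 0.00059 (95% interval -0.13 to 0.13).

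Across roles, the Elmo1-/- library was the higher in all 4 same-numbered pairs for 3 members (Fermt3, Was and Fscn1) and the lower in all 4 for 3 others (Zyx, Pstpip1 and Gsn). Over all genes tested 4.7% were higher and 4.8% were lower in all 4 pairs, against 3 of 39 members in each direction. The libraries are not shown to be paired by number, so these counts and the block are descriptions under an assumed pairing. With the replicate block, 3 of the 39 (Zyx, Pstpip1 and Fscn1) had an unadjusted p below 0.05 in limma, against 2.75% of all genes, and with the library set as a term 1 did (Fscn1), against 2.91% of all genes. In edgeR the same genes were below it, 3 with the block against 2.73% of all genes and 1 with the set against 2.8%. None passed after adjustment. Without Elmo1-/- mouse 1, 4 members (Zyx, Was, Arpc3 and Cfl1) did not overlap between genotypes, against 4.46% of all genes, and without Elmo1+/- mouse 2 the count was 2 (Was and Arpc2), against 2.11%.

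**Figure D2:**
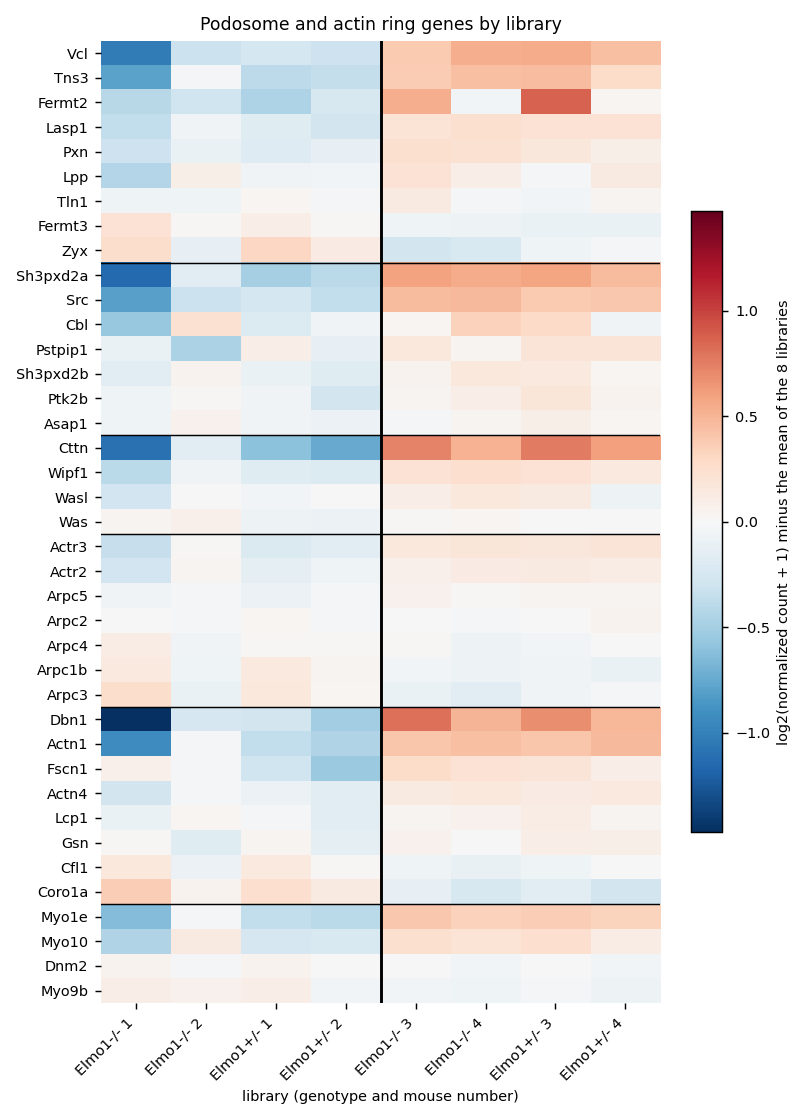
Each row is 1 of the 39 genes and each column 1 library, with the libraries numbered 1 and 2 left of the thick line and those numbered 3 and 4 right of it. Colour is log2(normalized count + 1) minus the mean of the gene over the 8 libraries, and thin lines part the roles. Cttn, Dbn1, Sh3pxd2a, Vcl, Actn1, Src, Tns3 and Myo1e are lower on the left than on the right in both genotypes. In Elmo1-/- mouse 2, on the left, Actn1, Tns3 and Myo1e lie close to their means.

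The median size of the difference between the library sets was 0.28 on the log2 scale over the 39 members, while that between genotypes was 0.02. Over all genes tested these medians were 0.21 and 0.06. The sets were known from earlier results of these data, so the values that follow are a description with no test. Whether the sets differed in the sex of the mice was not tested either. Of the 39 members, 9 were higher in the libraries numbered 3 and 4 by at least 0.5 on the log2 scale and 0 were lower by that much, against 9.66% and 7.25% of all genes tested. The median difference between sets was 0.21 over the 39 members and -0.0072 over all genes. Just inside the bound of 0.5 was Fermt2 at 0.69, and just outside it Lasp1 at 0.43. The same 9 remained when Elmo1-/- mouse 1 was left out.

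The 9, named here because of these values, came from every role but the Arp2/3 complex. Cttn was at 1051 to 2021 normalized counts in the libraries numbered 1 and 2 and at 3210 to 3831 in those numbered 3 and 4, a 2.46-fold difference on average and 2.22-fold without Elmo1-/- mouse 1. Dbn1 was at 40 to 95 and 158 to 197 (2.38-fold), and Sh3pxd2a at 1322 to 2611 and 4053 to 4411 (2.14-fold). Vcl, Actn1 and Src followed with 1.94-fold, 1.83-fold and 1.82-fold. Tns3 (tensin-3, an adaptor that binds actin), Myo1e and Fermt2 (kindlin-2, at 20 to 24 and 27 to 52) differed by 1.71-fold, 1.64-fold and 1.61-fold. In all 9 the sets did not overlap, and in all 9 the genotypes did.

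In all, 19 members were higher and 2 lower in numbers 3 and 4 with no overlap between sets, against 18.1% and 15.8% of all genes. The 2 lower were Coro1a, at 13194 to 16436 in numbers 1 and 2 and at 10620 to 11717 in numbers 3 and 4, and Fermt3. Elmo1-/- mouse 1 was the lowest of the 8 libraries for 18 of the 39 members, against 28.3% of all genes. It was the highest for 6, against 27.1%. The 39 genes together took 1.45% to 1.62% of all counts in numbers 1 and 2 and 1.66% to 1.72% in numbers 3 and 4.

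Osteoclast markers moved in the same direction between sets. All 14 of the listed osteoclast markers were higher in numbers 3 and 4 without overlap, 11 of them by at least 0.5, and their summed level was 485944 to 733533 in numbers 1 and 2 and 1078728 to 1223103 in numbers 3 and 4. Of the 10 macrophage markers 4 were lower in numbers 3 and 4 without overlap and 0 higher, and 3 were lower by at least 0.5. Their differences ran from -1.13 to 0.04, with a median of -0.25 and summed levels of 233300.0 to 263463 and 196657 to 246249, which overlap. The neutrophil list, with 10 genes tested of 10, summed to 16494 to 27731 and 14441 to 17245, and the stromal list, with 9 of 14 tested and Bglap and Alpl at or near 0 in every library, to 2298 to 2774 and 1746 to 2810. The endothelial list, with 3 of 5 tested, summed to 466 to 660.3 and 435 to 542, and the B cell and erythroid list, with 1 of 8 tested and Hbb-bs at 0 throughout, to 244 to 421 and 161 to 222. Between genotypes the osteoclast sums overlapped, at 485944 to 1223103 in Elmo1-/- and 626818 to 1143851 in Elmo1+/-. The part of these cells in the differences between sets was not tested, and in bulk RNA fewer cells of a type and less RNA per cell cannot be told apart.

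**Figure D3:**
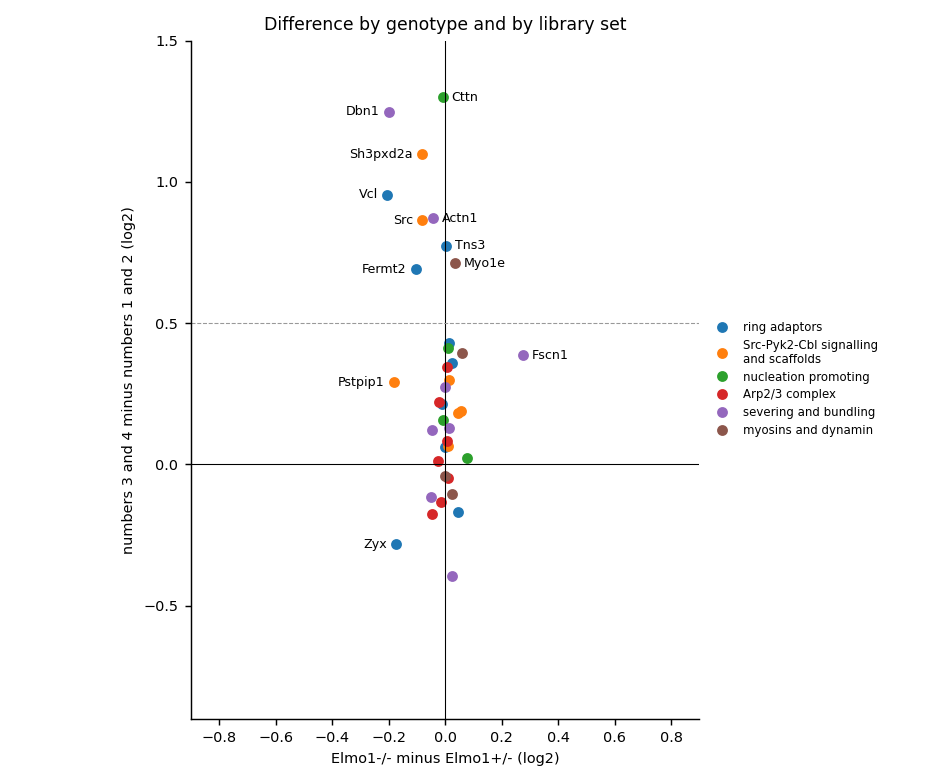
Each point is 1 of the 39 genes, coloured by role, with the genotype difference on the x axis and the difference between library sets on the y axis, both in log2 and on 1 scale. The points spread from -0.40 to 1.30 along y and from -0.21 to 0.27 along x, and the 9 genes above the dashed line at 0.5 are named.

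Levels per length differed widely among the 39 genes. Cfl1 was the highest at 1568, followed by Arpc2 at 1139 and the leukocyte bundling protein Lcp1 at 803. The lowest were Fermt2 at 0.458, Dbn1 at 2.25 and Lpp at 5.46. By the mean over the 8 libraries, the top member of each role was Lasp1 (233) among the ring adaptors, Pstpip1 (221) among the scaffolds, Was (121) among the nucleation genes, Arpc2 in the Arp2/3 complex, Cfl1 among the severing and bundling genes and Myo1e (103) among the myosins and dynamin. Among the ring adaptors, Lasp1 (161 to 279 over the 8 libraries), Fermt3 (194 to 216) and Tln1 (166 to 218) overlap and cannot be ranked beyond their spread, and the same holds for Myo1e (57.4 to 134.5) and Dnm2 (85.4 to 94.7). In Elmo1-/- mouse 1, where Myo1e had its lowest level, and in Elmo1+/- mice 1 and 2, it lay below Dnm2. The ranges of Fermt2 (0.291 to 0.811) and Dbn1 (0.639 to 3.62) overlap too.

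**Figure D4:**
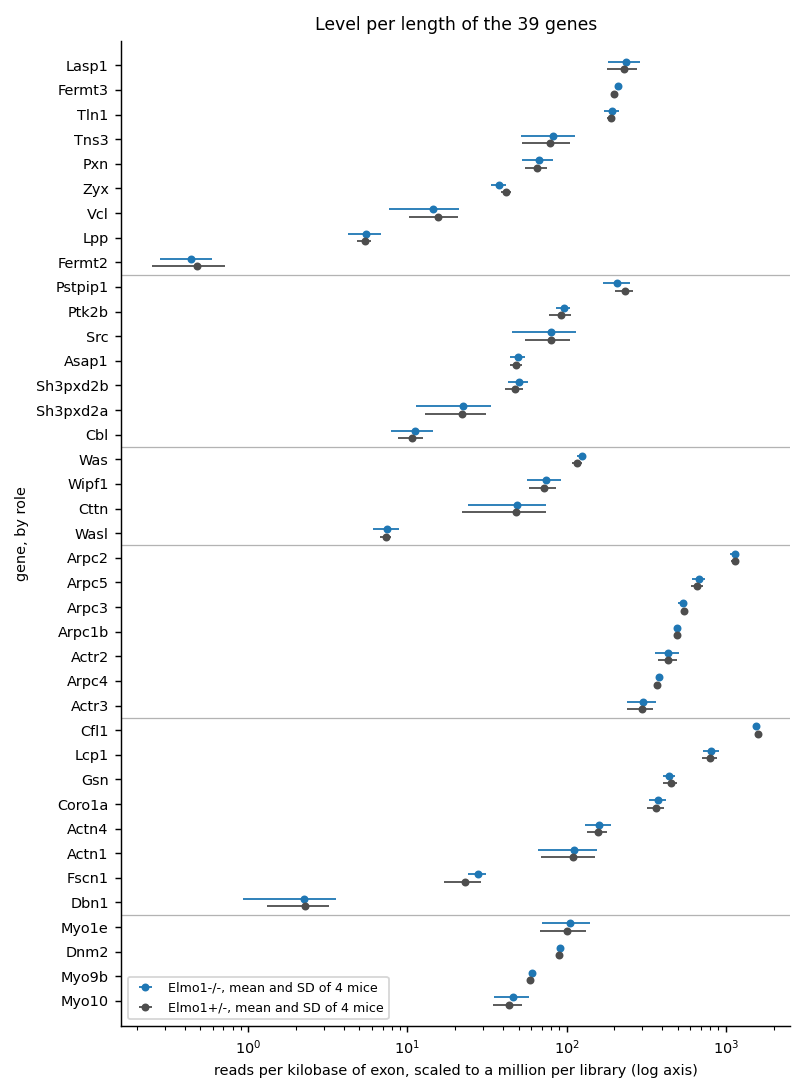
Level of the 39 genes per kilobase of exon, scaled to a total of 1000000 per library, on a log axis and ordered within each role. Blue and grey points are means of 4 Elmo1-/- and 4 Elmo1+/- mice and bars are SDs; the genotypes lie on top of each other from Fermt2 at 0.458 to Cfl1 at 1568.

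Where a family has several members, 1 member usually prevailed. Fermt3 exceeded Fermt2 239-fold to 738-fold over the 8 libraries, and Tln1 exceeded Tln2 378-fold to 916-fold, all per length. Fermt1, the other kindlin gene, was at 0 in 7 libraries and at 1.98 normalized counts in Elmo1+/- mouse 2. Was exceeded Wasl 15.1-fold to 20.6-fold. Within the Arp2/3 complex, Arpc1b exceeded Arpc1a 6.46-fold to 7.50-fold and Arpc5 exceeded Arpc5l 25.9-fold to 32.9-fold, and Actr3b had only 1 to 16 reads in a library.

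Some other pairs were nearer to each other. Actn4 exceeded Actn1 1.19-fold to 2.39-fold, Sh3pxd2b exceeded Sh3pxd2a 1.65-fold to 4.76-fold, and Cbl exceeded Cblb 1.27-fold to 2.27-fold. Leupaxin (Lpxn), the blood-cell relative of paxillin, exceeded Pxn 2.16-fold to 3.88-fold. The blood-cell cortactin relative Hcls1 (HS1) exceeded Cttn 19.3-fold or more in each library numbered 1 and 2 and by less than that, down to 9.37-fold, in those numbered 3 and 4. Of the 14 pairs compared, the genotypes overlapped in 14, and the library sets did not overlap in 7, namely those of kindlin, WIP, cortactin, Pyk2, Tks, α-actinin and paxillin. The pairs of kindlin, cortactin, Tks and α-actinin hold Fermt2, Cttn, Sh3pxd2a and Actn1, already among the 9 members named for their set difference. No share over other gene pairs was computed.

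**Figure D5:**
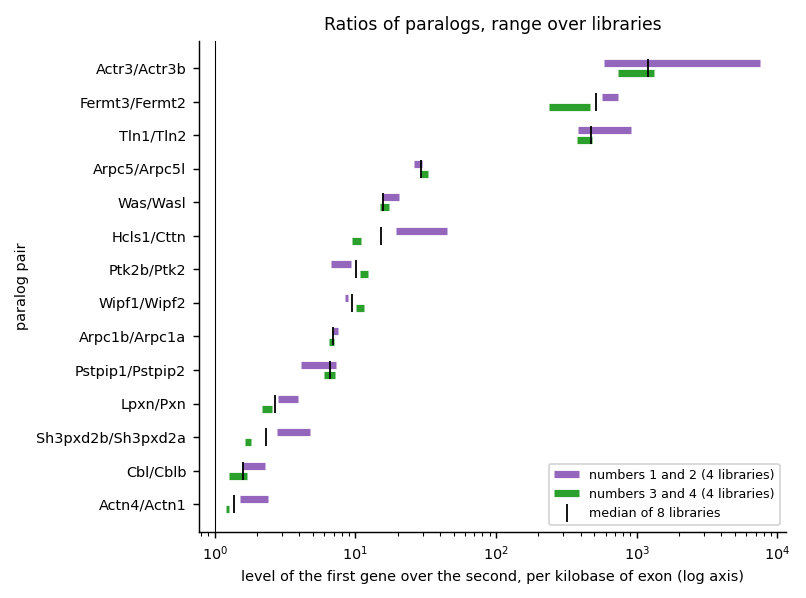
Ratio of the levels per kilobase of exon of 14 pairs of related genes, on a log axis. Purple and green bars give the range over the 4 libraries numbered 1 and 2 and the 4 numbered 3 and 4, and ticks the median of all 8; the bars are apart for 7 pairs, among them Hcls1/Cttn and Sh3pxd2b/Sh3pxd2a, and overlap for Was/Wasl, Arpc1b/Arpc1a and Arpc5/Arpc5l.

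The genes that act around these members were looked at in 3 further lists. Of the WAVE complex genes and Arp2/3 paralogs, 14 of 17 were tested and 0 had an unadjusted p below 0.05 in limma, with a median log2 difference of 0.02 and a range from -0.29 for Nckap1 to 0.16 for Abi2, both WAVE complex subunits. Of the genes of filament ends, monomers and contraction 0 of 32 were below that p, with differences from -0.45 for Tpm2 to 0.15 for Enah, and of the adhesion signalling genes 0 of the 20 tested out of 22 were below it, from -0.33 for Parva to 0.29 for Tln2. Over all genes tested 0.941% were below that p. Vasp, a filament elongation factor named because its genotypes did not overlap, lay at 12619 to 13433 in Elmo1-/- and at 12143 to 12529 in Elmo1+/- (log2 difference 0.08, limma unadjusted p = 0.208). It was the 1 gene of the 32 in its list without overlap, against 0 in either other list and 0.941% of all genes tested.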

How the data were processed

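RNA-seq was measured in 8 osteoclast libraries, with paired-end reads of 75 bp from TruSeq mRNA libraries on an Illumina NextSeq. The authors' deposited values are a signal, namely counts of reads that DESeq2 scaled with a size factor for each library. The submitters' processing notes name FastQC, STAR, featureCounts and DESeq2, with genome build, annotation and strand setting not given in the sources used here. Columns of the authors' own comparison (mean, fold change, error, test statistic and p-values) in the same table were not used.

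Symbols, positions and exon lengths came from GENCODE mouse release M21 (GRCm38), in which 46005 of 46517 identifiers matched. Whole reads were recovered from the steps of the values (100% of values to within 0.01 of a read), with 20905502 to 40846651 reads per library. The main test was limma 3.58.1 (trend and robust settings) in R 4.3.3 on log2 values after adding a pseudocount of 1; 14139 genes reached 10 normalized counts in 4 or more libraries, and p-values were adjusted over these by Benjamini-Hochberg. Single genes were also compared by two-sided exact permutation over 70 arrangements. Fold changes of low genes are understated on this scale. The fits were tested on simulated counts with known changes, the same dispersion for every gene and no difference between library sets. That run cannot show how the fits behave with such sets or with differences as small as those of the members.

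Alternatives were edgeR 4.0.16 and DESeq2 1.42.0 on recovered reads, TMM and equal-total scaling, other filters and pseudocounts, leaving out each mouse, the library set as a term and the replicate number as a block. The labels do not say that numbers mark a shared experiment. Same-numbered libraries deviated together from their genotype means (correlations across genes of 0.703, 0.156, 0.598 and 0.520), and a correlation over 0.1 in each of the 4 was the bound set for pairing by number. That bound cannot tell pairs from sets, because different numbers within a set correlated as well. Elmo1+/- mouse 2 correlated more with Elmo1-/- mouse 1 (0.691) than with Elmo1-/- mouse 2. Elmo1+/- mouse 3 correlated most with Elmo1-/- mouse 4 (0.614), and Elmo1+/- mouse 4 with Elmo1-/- mouse 3 (0.561). The numbers are thus not shown to pair the libraries. The 39 genes and all other lists were chosen with earlier results of these data known. 1 further gene list is not reported here. Named in full were the 12 members with the smallest unadjusted p and the highest per length in each role. Of the other lists, genes at an unadjusted p under 0.05 and the highest and lowest were named. Vasp and the relatives compared with members were named outside this rule. Replicates are separate mice. Promoter windows are those nearest to a principal GENCODE transcript start, within 100 bases for 31 of the 34 genes. Levels per length are recovered reads per kilobase of exon scaled to a total of 1000000.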

Additional observations from a re-analysis of the deposited data

Results flagged for a closer look

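In each member and genotype the 4 libraries were checked for 1 that stands apart (Dixon's gap over range, critical value 0.829). Of 78 groups 3 passed it, where chance gives about 3.9, since it flags about 1 in 20 groups. Lpp, a zyxin relative, had a ratio of 0.906 in Elmo1+/-, with mouse 4 at 1633 normalized counts and the others at 1436 to 1454. Arpc3 had a ratio of 0.848 in Elmo1-/-, with mouse 1 at 22439 and the others at 16636 to 17518. Cfl1 had a ratio of 0.830 in Elmo1-/-, with mouse 1 at 62164 and the others at 51677 to 53455.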

How the results depend on the processing

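Under every alternative run, 0 of 39 members passed an adjusted p of 0.05, and the smallest adjusted p of any member was 0.937. The number of members at an unadjusted p below 0.05, 0 in the main comparison, became 3 with the replicate block (Zyx, Pstpip1 and Fscn1) and 1 with the library set as a term (Fscn1), and with edgeR, chosen after seeing the data, 3 with the replicate block and 1 with the set. The block changed no other call of a member, and over all genes it moved the count at that p from 133 to 389 (edgeR 402), the set to 411 (edgeR 404) and no filter to 478. Leaving out each mouse gave 0 to 1 members (Zyx on omitting Elmo1-/- mouse 1, Fscn1 on omitting Elmo1+/- mouse 3) and 71 to 341 of all genes, the lowest without Elmo1+/- mouse 1 and the highest without Elmo1-/- mouse 1; omitting Elmo1-/- mouse 3 gave 201 and omitting Elmo1+/- mouse 4 gave 202. Members whose genotypes did not overlap, 1 at first, were 0 with equal totals and 1 to 4 on leaving out a mouse (4 without Elmo1-/- mouse 1; 2, Was and Arpc2, without Elmo1+/- mouse 2, against 2.11% of all genes). Genes called in all, 1 at first, were 2 with DESeq2 and 1 to 2 on leaving out a mouse (2 without Elmo1+/- mouse 2). The members' median log2 difference lay between -0.047 and 0.075. Of 779 member values over all alternatives, 104 changed sign, in 32 of 39 genes, none of them called, and Fscn1, Was, Zyx and Pstpip1, the 4 with a difference beyond 1 SE, kept theirs. A minimum of 50 left out Fermt2. The library sets alone were given no test. The cause of these shifts was not tested.

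With 4 mice per genotype, a difference smaller than the half-width of a member's own 95% interval cannot be told from 0. The median half-width was 0.29 on the log2 scale. Fermt2 had 19 to 49 reads per library.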
